A study of Mus musculus with 54 samples.

Results

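The genes described here are the forkhead box genes of the mouse other than Foxa1, Foxa2 and Foxa3, taken as the protein-coding genes whose symbol is Fox, a letter from b to s and a number. They number 41 of the 21631 protein-coding genes placed on the chromosomes of the deposited lists. The series compared parental mouse pancreatic cancer cells from a primary tumour (genotype WT, treated with DMSO) with cells of genotype Gemcitabine resistant that were treated with gemcitabine in DMSO. Both groups came from the pancreas and share the DMSO vehicle. Resistance and drug exposure went together, so they cannot be told apart, and for the Hi-C samples the series text has doxorubicin where their own labels have gemcitabine, which was followed. The labels describe 54 samples in 18 groups of 3, of which 6 were Hi-C samples. Whether the resistant cells are 1 clone or a mixture was not given in the sources used here. No expression values were used, so the labelled cell type was not checked against markers.

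Hi-C joins and sequences pieces of DNA that touch in the fixed nucleus. Loops are pairs of bins, called anchors, that contact each other more than their surroundings do, and domains are stretches that contact themselves more than their flanks. The deposited calls were 1 loop list and 1 domain list for each condition, so no difference between conditions could be tested, none is called a change, and the read depth behind the lists is unknown. The parental list held 6829 loops and 3997 domains, and the resistant list held 7169 loops and 4196 domains. Each loop joined bins of 5 kb and carried a p-value from the authors' caller, which is used here only to rank loops within their own list. A loop was given to a gene when an anchor lay within 5 kb of either end of the gene. A loop counted as found in both lists when a loop of the other condition had each of its anchors no more than 10 kb away, and otherwise as parental-only or resistant-only. The lists come from bulk cells, so the share of cells with a contact and its frequency within a cell cannot be told apart. Intervals are exact Clopper-Pearson 95% intervals and cover counting error only.

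Forkhead factors bind DNA through a winged-helix domain, and several can engage sites in compact chromatin. Subfamilies differ in role: FoxO factors are held in the cytoplasm when insulin signalling through AKT is active, FoxM1 drives mitotic genes, FoxF, FoxC and FoxL1 pattern mesenchyme, FoxJ1 builds motile cilia, and FoxP and FoxK factors act largely as repressors. In the pancreas Foxo1 restrains beta cell growth and the FoxA factors, left out here, open foregut enhancers.

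A loop lay at an end of 16 of the 41 genes in the parental list, or 39% (24.2 to 55.5), beside 23.3% of all protein-coding genes. In the resistant list 15 genes had one, or 36.6% (22.1 to 53.1), beside 23.8% of all genes. The interval of the parental share lay above the share of all genes, with its lower limit of 24.2 close to 23.3, and that of the resistant share included it. Some of the 41 genes are neighbours, so these intervals take genes as independent that are not all so. Loops were listed in both conditions at 10 genes, in the parental list alone at 6 genes, among them Foxb2, Foxd1, Foxn2, Foxn3 and Foxo6, and in the resistant list alone at 5 genes (Foxd2, Foxd4, Foxj3, Foxn4 and Foxo3). The other 20 genes had no loop at an end in either list, as did 14303 of the 21631 protein-coding genes. Shares of all genes with loops in both lists or in 1 list alone are not given here. The genes named are therefore a listing, not a trait of the family. At least 1 parental-only loop was found at 8 genes, beside 13.6% of all genes, and at least 1 resistant-only loop at 7 genes, beside 14.2% of all genes. More resistant-only than parental-only loops were counted at 6 genes, the opposite at 6 genes, and no difference at 29 genes. Each direction was thus 14.6% of the forkhead genes, beside 11.8% toward resistant-only and 11.3% toward parental-only loops over all genes.

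**Figure D1:**
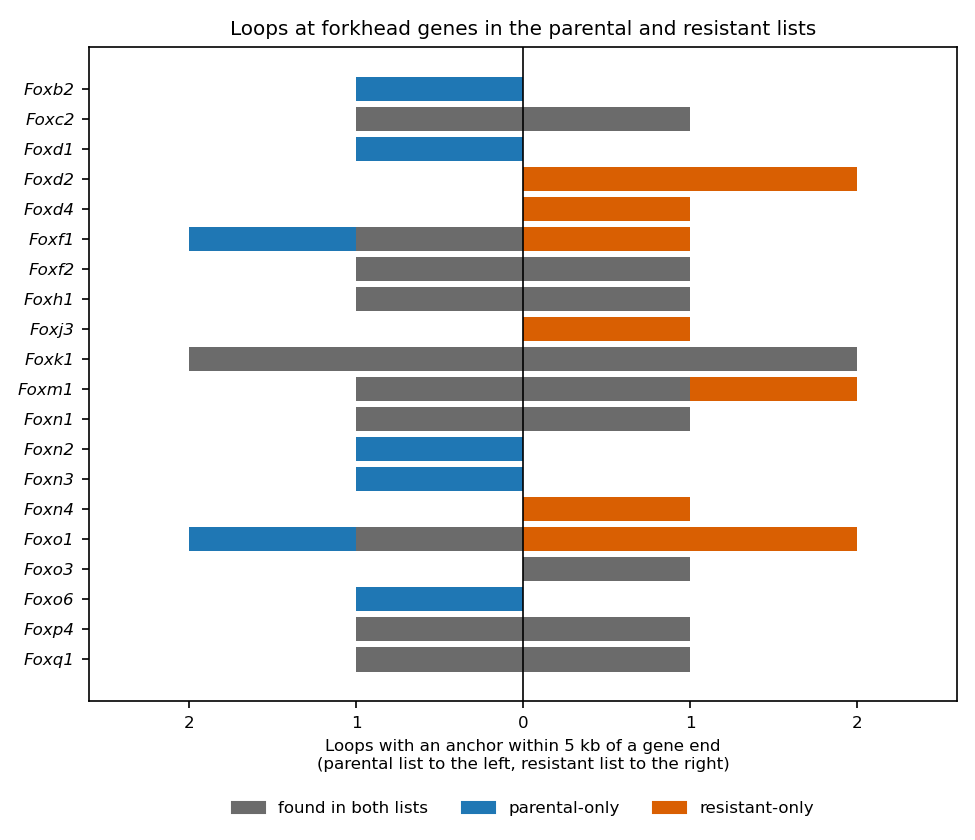
Number of loops with an anchor within 5 kb of a gene end, for 20 forkhead genes that had any, with the parental list to the left of 0 and the resistant list to the right. Grey bars are loops found in both lists and coloured bars are loops of 1 list, and no gene shown had more than 2 loops in a list.

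Counted once each, these were 20 parental loops, of which 11 were found in both lists, or 55% (31.5 to 76.9), and 19 resistant loops, of which 10 were found in both, or 52.6% (28.9 to 75.6). Over all loops at a gene end the shares were 46.2% of 3613 parental loops and 44.8% of 3729 resistant loops, inside those intervals. The loops found in both lists stood high in the p ranking. Their median p was 3.84e-07 in the parental list, at percent rank 16.6 counted from the lowest p, and 8.47e-07 in the resistant list, at percent rank 18.5. Parental-only loops had a median p of 0.000966 (percent rank 65.2) and resistant-only loops of 0.00042 (percent rank 57.1). The same ranks over all loops at a gene end are not given here, so this is not read as a trait of the family. Among the loops of 1 list, those at Foxd1, Foxn4 and Foxo1, given below, included 1 each with a p below the median of the shared loops of its list. Spans had medians of 75 kb in the parental list and 55 kb in the resistant list, beside 105 and 100 kb over all loops at a gene end.

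**Figure D2:**
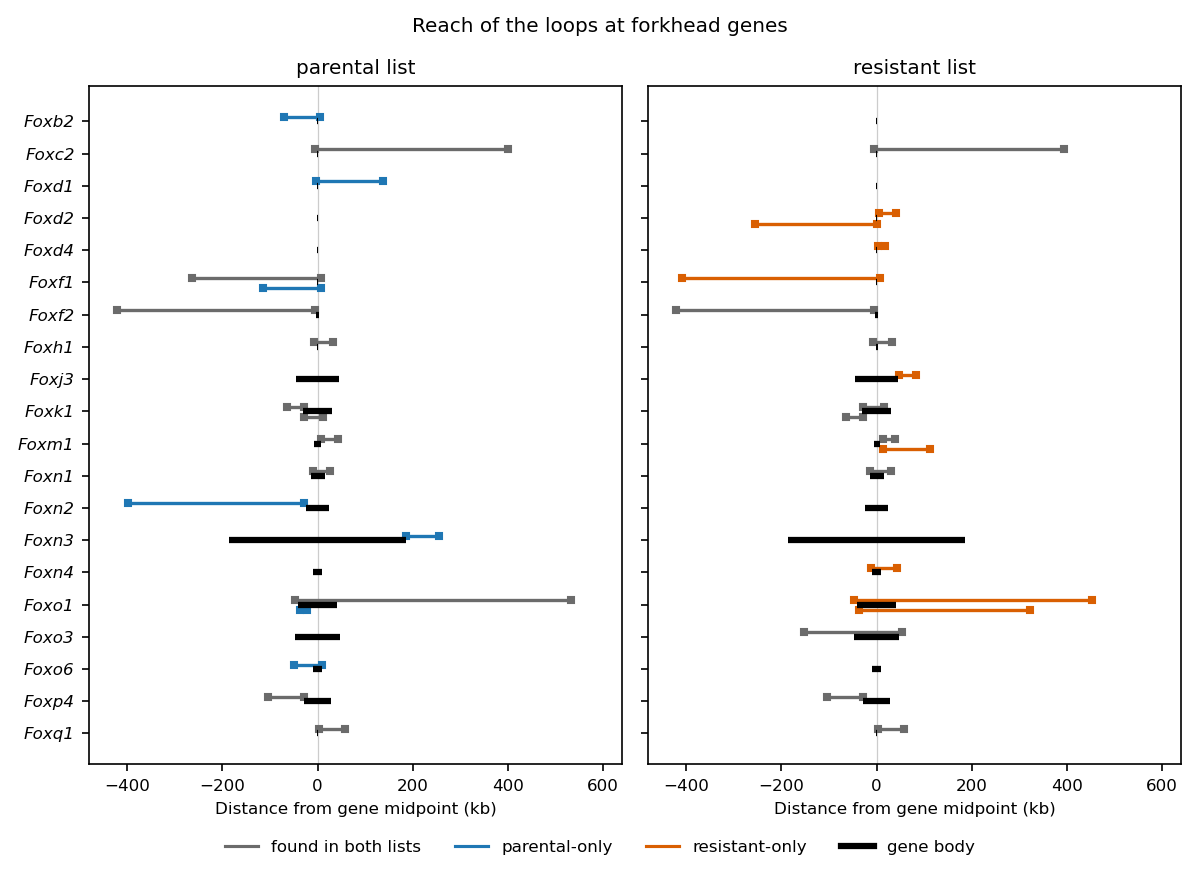
Reach of the loops at the ends of 20 forkhead genes, drawn as the distance of its anchors from the midpoint of the gene in kb, for the parental list (left) and the resistant list (right). Black bars are gene bodies, grey lines are loops found in both lists and coloured lines are loops of 1 list, and the longest drawn is the parental loop of 580 kb at Foxo1, found in both lists.

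The genes of mesenchyme sit in a pair of clusters, each cut by a domain border that both lists placed at the same position. On chromosome 8 (coordinates are mm10, counted from 1) Foxf1, needed for lung and gut mesenchyme and vessels, lies at 121084386 to 121088154, and Foxc2, needed for lymphatic valves, lies at 121116171 to 121118895. The border at 121100000 falls in the 28 kb between them, 11.8 kb from Foxf1 and 16.2 kb from Foxc2. Foxl1, a marker of subepithelial cells of the gut, starts 8.79 kb beyond Foxc2 on the same side of the border. Every loop at Foxf1 ran away from the border to the left and every loop at Foxc2 ran to the right. Such loops are the rule, since 96.2% of all parental and 95.9% of all resistant loops at a gene end had no border between their anchors. No loop at a forkhead gene end joined that end to an end of a second forkhead gene.

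Foxc2 had 1 loop, found in both lists, between bins starting at 121110001 and 121515001 in the parental list (405 kb, p 1.26e-08) and at 121110001 and 121510001 in the resistant list (400 kb, p 9.71e-07). It spans Foxl1, whose nearer end is 12685 bp from the anchor. The far anchor lies 20 kb inside the right border of the domain in the parental list. Foxf1 had a loop of 270 kb found in both lists, from 120820001 to 121090001 in the parental list (p 5.55e-07). Its resistant counterpart ended 1 bin nearer the border, at 121095001 (p 0.000192), which is beyond 5 kb from Foxf1. The loops of 1 list at Foxf1 shared the anchor at 121090001. The parental-only loop reached 120970001 (120 kb, p 0.000966), and the resistant-only loop reached 120675001 (415 kb, p 1.55e-05), at Cox4i1, a subunit of cytochrome oxidase, and 5 kb from the left border of the domain. The gene Mthfsd also has an end within 5 kb of the anchors on both sides of the border, so its loops cannot be told apart from those of Foxf1 and Foxc2.

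On chromosome 13 Foxq1, a factor of epithelia linked to mesenchymal transition in tumours, lies 64.8 kb from Foxf2, which acts in gut and palate mesenchyme, and Foxc1, needed in eye, heart and skull development, lies 175 kb further on. The border at 31670000 falls between Foxf2 and Foxc1 in both lists, 38.6 kb from Foxf2 and 137 kb from Foxc1. Foxq1 had a loop of 55 kb from 31560001 to 31615001, in the same bins in both lists, with p-values of 2.52e-09 (parental) and 2.85e-08 (resistant). Its far anchor ended 5816 bp from Foxf2, just outside the 5 kb limit. Foxf2 had a loop of 415 kb from 31205001 to 31620001, again in the same bins in both lists (p 2.01e-05 and 1.38e-05). It passes over Foxq1 and stays within their common domain of 800 kb.

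Foxc1 had no loop within 5 kb. The nearest anchors lay 11646 bp from the gene in the parental list, for a parental-only loop from 31790001 to 32210001 (p 8.03e-05), and 6646 bp in the resistant list, for a resistant-only loop from 31795001 to 32300001 (p 3.96e-05). A second resistant-only loop ran from 31790001 to 32410001 (p 0.0021). All 3 left neighbouring bins before Foxc1 and ran to the right, to far ends that differed between the lists by more than 10 kb. Both resistant-only loops passed the border at 32220000 that ends the Foxc1 domain in both lists, and the parental-only loop ended before it.

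**Figure D3:**
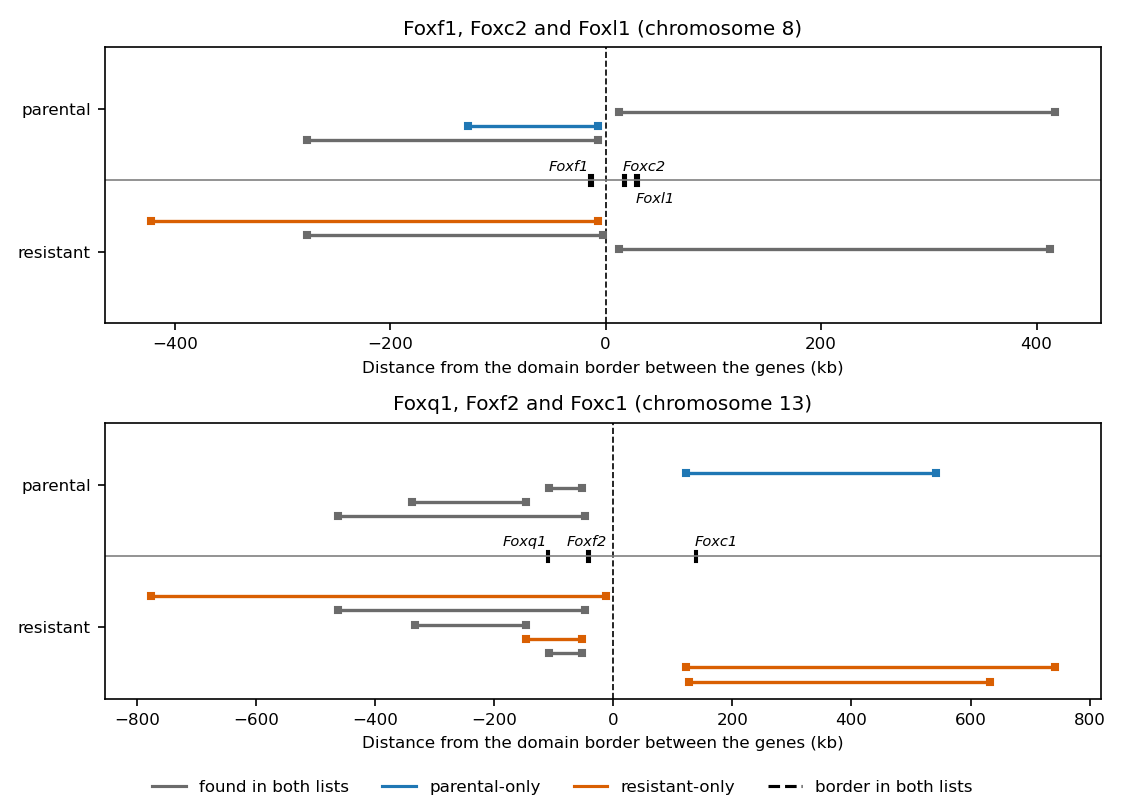
Loops with an anchor within 50 kb of a gene end in the clusters on chromosome 8 (top) and chromosome 13 (bottom), as distance in kb from the border between the genes, with parental loops above and resistant loops below the genes. Black boxes are genes (boxes under 3 kb are widened to be visible), the dashed line is the border placed alike in both lists, and no drawn loop crosses it. Over all loops at a gene end, 96.2% (parental) and 95.9% (resistant) had no border between their anchors.

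The bases before the listed start are shown for the forkhead genes whose start lies in an anchor bin or within 2 kb of one, since for these genes the loop was called at or beside the start. Starts and sequences are RefSeq's, build GRCm38.p6, and 25 of the 41 genes had an entry. Genes without an entry included Foxb1, Foxc2, Foxe1, Foxf1, Foxh1, Foxj1, Foxk1, Foxl1, Foxm1, Foxn2, Foxo4, Foxo6, Foxp2, Foxq1 and Foxs1. Each line gives the 250 bases before the start on the strand of the gene, with CG dinucleotides in capitals. The starts of Foxd1 (chr13:98353995-98354244, plus strand), Foxd2 (chr4:114908899-114909148, minus strand) and Foxd4 (chr19:24901017-24901266, minus strand) lie inside an anchor bin. Those of Foxf2 (chr13:31625566-31625815, plus strand), Foxb2 (chr19:16873831-16874080, minus strand) and Foxo1 (chr3:52268087-52268336, plus strand) lie 816, 1171 and 1664 bp from one.
Foxb2: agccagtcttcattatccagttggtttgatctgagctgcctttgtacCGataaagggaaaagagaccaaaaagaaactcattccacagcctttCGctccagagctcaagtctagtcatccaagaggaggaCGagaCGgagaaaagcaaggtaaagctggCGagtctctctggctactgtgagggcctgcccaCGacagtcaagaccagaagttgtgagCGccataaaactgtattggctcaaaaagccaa
Foxd1: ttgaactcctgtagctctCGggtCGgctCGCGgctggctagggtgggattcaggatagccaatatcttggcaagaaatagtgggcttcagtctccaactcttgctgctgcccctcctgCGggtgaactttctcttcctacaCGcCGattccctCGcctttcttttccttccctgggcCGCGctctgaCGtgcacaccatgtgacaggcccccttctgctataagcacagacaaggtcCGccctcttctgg
Foxd2: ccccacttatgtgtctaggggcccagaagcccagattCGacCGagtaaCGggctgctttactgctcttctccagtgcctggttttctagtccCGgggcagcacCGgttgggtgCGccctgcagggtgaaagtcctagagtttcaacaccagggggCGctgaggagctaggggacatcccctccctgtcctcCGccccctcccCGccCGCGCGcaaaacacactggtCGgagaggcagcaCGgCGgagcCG
Foxd4: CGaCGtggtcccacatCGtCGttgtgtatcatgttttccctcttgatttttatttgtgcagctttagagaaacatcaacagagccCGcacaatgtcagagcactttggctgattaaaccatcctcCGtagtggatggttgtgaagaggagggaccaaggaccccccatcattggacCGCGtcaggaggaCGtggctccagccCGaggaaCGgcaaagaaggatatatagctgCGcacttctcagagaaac
Foxf2: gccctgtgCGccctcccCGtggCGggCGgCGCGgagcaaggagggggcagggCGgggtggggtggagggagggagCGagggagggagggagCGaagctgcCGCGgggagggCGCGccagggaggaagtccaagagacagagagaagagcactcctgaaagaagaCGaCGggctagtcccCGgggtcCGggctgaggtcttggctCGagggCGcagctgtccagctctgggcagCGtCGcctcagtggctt
Foxo1: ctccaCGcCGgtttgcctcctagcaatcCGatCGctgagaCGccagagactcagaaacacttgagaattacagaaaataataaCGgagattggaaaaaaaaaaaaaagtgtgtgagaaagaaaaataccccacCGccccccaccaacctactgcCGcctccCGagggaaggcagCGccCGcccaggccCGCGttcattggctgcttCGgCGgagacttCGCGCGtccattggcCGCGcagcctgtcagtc
CG dinucleotides numbered 7 before Foxb2, 12 before Foxd1, 16 before Foxd2, 12 before Foxd4, 21 before Foxf2 and 20 before Foxo1. Over the 25 genes with an entry the median was 17, from 3 to 48, taking the highest count where a gene had several starts, beside 11 over 17274 protein-coding genes. The forkhead core TGTTTAC, searched on both strands from 250 bases before to 50 bases after each start, was found at 0 of the 25 genes and at 602 of the 17274 genes, or 3.49%. The core motif of CTCF, the factor that halts loop extrusion, was searched in the same windows on both strands and was found at 3 of the 25 genes, or 12%, and at 481 of all genes, or 2.78%. The matches were at Foxc1, Foxd1 and Foxj2. The Foxd1 match, gccctcttctgg on the gene's strand at chr13:98354233-98354244, ends at the base before the start, inside the anchor of its parental-only loop. At Foxd1 the CTCF core itself reads on the strand opposite to the gene. A match is a run of letters and not a measured binding site.

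Among the FoxD genes the lists differed gene by gene. Foxd1, which marks stromal progenitors of the kidney, had 1 parental-only loop from 98350001 to 98490001 on chromosome 13 (140 kb, p 3.36e-07, percent rank 16.2), and the nearest resistant loop differed by 245 kb at an anchor. Foxd2, a mesodermal factor, had 2 resistant-only loops on chromosome 4. One ran 35 kb from 114910001 to 114945001 (p 0.00115), ending in a bin at the border that both lists placed at 114950000. The other ran 255 kb from 114650001 to 114905001 (p 0.00626). Foxe3, a lens factor, lies 15.5 kb from Foxd2 and had no loop within 5 kb, but 4 resistant-only loops within 50 kb and no parental loop, among them both Foxd2 loops and a loop of 20 kb at Cmpk1, the kinase of pyrimidine monophosphates (p 0.000405). Foxd4 had 1 resistant-only loop of 15 kb on chromosome 19, from 24900001 to 24915001, at Cbwd1 (p 0.00536, percent rank 79.4). Foxd3, a factor of neural crest, had no loop within 50 kb in either list.

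Foxb2, a relative of the hypothalamic factor Foxb1, had a parental-only loop of 75 kb on chromosome 19, from 16800001 to 16875001 (p 0.00323, percent rank 75.8). From the same left bin a loop found in both lists passed over the gene. It reached 17025001 in the parental list (p 5.88e-08) and 17030001 in the resistant list (p 0.001).

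The FoxO genes, the insulin-responsive factors of stress resistance and cell cycle arrest, differed in the loops at their ends. Spans were 15 to 580 kb at Foxo1, 205 kb at Foxo3 and 60 kb at Foxo6, and Foxo4 had no loop there. Foxo1 lies on chromosome 3 at 52268337 to 52350109, and the start of the gene lies 18.3 kb from a border. A loop found in both lists ran from 52260001 to 52840001 in the parental list (580 kb, p 5.47e-09) and from 52255001 to 52840001 in the resistant list (585 kb, p 1.83e-08), where its anchor lay outside 5 kb. From the same anchor at 52260001 a resistant-only loop reached 52760001 (500 kb, p 7.29e-08, percent rank 8.89). A resistant-only loop of 360 kb began at 52270001 (p 0.00819), and a parental-only loop of 15 kb began there too and lay inside the gene (p 0.000832). Each list thus had 2 loops at the Foxo1 end. Within 50 kb there were also 3 parental-only loops, from 52255001 to 53005001 (750 kb, p 8.52e-07), from 52255001 to 52925001 (670 kb, p 8.36e-05) and from 52315001 to 52840001 (525 kb, p 0.00884).

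Foxo3 had 1 loop within 5 kb, in the resistant list, from 42075001 to 42280001 on chromosome 10 (205 kb, p 3.25e-06). It was found in both lists, since the parental loop ran from 42065001 to 42285001 (p 1.07e-06) with its anchor more than 5 kb from the gene. The listed start of Foxo3 lay 3306 bp from the resistant anchor. A further loop of 310 kb within 50 kb of the gene was found in both lists (p 6.13e-07 parental and 1.09e-08 resistant). Parental-only loops of 325, 385 and 460 kb were also listed within 50 kb (p 3.35e-05, 0.0019 and 0.00212), and no resistant-only loop. Those of 325 and 385 kb lay beyond the border at 42300000, which ends the Foxo3 domain in both lists. Their near anchors were at an end of Afg1l, so these loops cannot be given to Foxo3. Foxo6, expressed mainly in brain, had a parental-only loop from 120225001 to 120285001 on chromosome 4 (60 kb, p 0.00175). From the same left bin a resistant-only loop reached 120375001 (150 kb, p 7.82e-08), passing over the gene. Foxo4, on the X chromosome, had 1 resistant-only loop within 50 kb (p 1.39e-06) and none within 5 kb.

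Foxm1, the activator of mitotic genes, and Foxk1, a repressor that responds to nutrients, had loops shorter than 50 kb in both lists. The Foxm1 loop on chromosome 6 ran from 128375001 to 128410001 in the parental list (35 kb, p 6.77e-10, percent rank 2.06), the lowest p of any loop at a forkhead gene end. In the resistant list it ran from 128380001 to 128405001 (25 kb, p 2.78e-06, percent rank 24.5). The far anchor lay at Nrip2, a nuclear receptor corepressor, and Itfg2, and the near one also at Tex52. A resistant-only loop led from the same near bin to Pzp, a protease inhibitor (100 kb, p 2.91e-05), and was the 1 resistant loop among the 19 with a border between its anchors. Of all resistant loops at a gene end, 95.9% had no border there. The resistant anchor lay 4115 bp from Foxm1, the largest distance inside the 5 kb limit. Just outside it were anchors at 5184 bp from Foxj2, 5367 bp from Foxi2 and the Foxq1 loop at 5816 bp from Foxf2.

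Foxk1 on chromosome 5 had 2 loops that met at its left end, both found in both lists. The first joined 142365001 to 142400001 (35 kb, p 1.75e-07 parental and 7.23e-07 resistant). The second ran into the gene, from 142400001 to 142440001 in the parental list (40 kb, p 4.71e-06) and to 142445001 in the resistant list (45 kb, p 1.28e-07). A further loop joined the outer bins, 142365001 and 142445001, in both lists (80 kb, p 3.55e-08 and 1.34e-05), so that each pair of the 3 places had a loop. Beyond the right end, resistant-only loops began 22986 bp away (130 kb, p 2.13e-05) and 37986 bp away (50 kb, p 8.02e-09). Both lay beyond the resistant border at 142470000, which separates them from Foxk1. An end of Radil, an adhesion protein, lay at the near anchor of the first and at the far anchor of the second. Foxk2, the close relative of Foxk1, had no loop within 50 kb.

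Of the FoxP genes, repressors that pair with one another, Foxp4 alone had a loop within 5 kb. It ran from 47790001 to 47865001 on chromosome 17, in the same bins in both lists (75 kb, p 0.00066 and 9.67e-05), and joined the end of Foxp4 to Tfeb, a master regulator of lysosomes and autophagy. This is the end of Foxp4 away from its listed start, which lies 54632 bp from the anchor. Foxp1, of 597 kb, had 2 resistant-only loops within 50 kb of an end and no parental one. Foxp2, of 541 kb, had 1 parental-only loop (p 0.0171, percent rank 91.5). Foxp3, the factor of regulatory T cells on the X chromosome, had none.

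The FoxN genes were divided. Foxn1, which is needed for thymic epithelium, had a loop found in both lists on chromosome 11, from 78360001 to 78395001 in the parental list (35 kb, p 1.63e-06) and from 78355001 to 78400001 in the resistant list (45 kb, p 1.84e-09, percent rank 2.4). It spanned the listed start and led to Slc13a2, a dicarboxylate transporter. Foxn2 had a parental-only loop of 370 kb on chromosome 17 to Fbxo11, a ubiquitin ligase subunit (p 0.00236). Foxn3, a repressor linked to cell cycle checkpoints, had a parental-only loop of 70 kb on chromosome 12 (p 0.00297). Its anchor held the right end of the gene, which is the upstream end, since Foxn3 is on the minus strand. The listed start, 109927 bp from the anchor, is a start inside the gene. Foxn4, which acts in retinal progenitors, had a resistant-only loop of 55 kb on chromosome 5 from 114250001 to 114305001 (p 2.47e-07, percent rank 13.2). Its anchor also held an end of Acacb, an enzyme of fatty acid metabolism.

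Foxh1, the Smad partner of Nodal signalling, had a loop of 40 kb on chromosome 15 in the same bins in both lists, from 76660001 to 76700001 (p 3.84e-07 and 8.7e-08). Its domain held 32 other protein-coding genes. Both anchors had other genes, Cyhr1 and Kifc2 at the near one and Gpt, Mfsd3 and Recql4 at the far one, so the loop cannot be given to Foxh1 alone. Foxj3, which acts in muscle and germ cells, had a resistant-only loop of 35 kb on chromosome 4 (p 0.00042), at the end 90340 bp from its listed start, where Guca2a also ends. Over the 20 parental and 19 resistant loops, 5 and 7 had another protein-coding gene at the far anchor, beside 32.5% and 31.4% of all loops at a gene end with genes at both anchors.

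A loop within 50 kb of an end was listed for 27 of the 41 genes in the parental list and 29 in the resistant list, beside 59.6% and 60.7% of all protein-coding genes. Of the 20 genes with no loop within 5 kb in either list, 11 had one within 50 kb, beside 60.7% of all such genes. Loops found in both lists were among them at Foxj1, the regulator of motile cilia (116315001 to 116445001 on chromosome 11, p 4.39e-07 and 7.03e-08), at Foxs1, a perivascular factor (152915001 to 153140001 on chromosome 2 in the parental list, p 9.4e-07), at Foxj2, at Foxr1 and, through the Foxc2 loop, at Foxl1. The Foxj2 loop from 122665001 to 122785001 on chromosome 6 had a p of 4.88e-11 in the parental list, percent rank 0.41, with an anchor 30184 bp from the gene. Foxi2 had 1 loop in each list, of 1 list each. The remaining members of the 11 were Foxc1, Foxe3, Foxo4, Foxp1 and Foxp2, described above. No loop within 50 kb was listed for 9 genes: Foxb1, Foxd3, Foxe1 of the thyroid, Foxi1 of proton-secreting cells, Foxi3 of ectodermal organs, Foxk2, Foxl2 of the ovary, Foxp3 and Foxr2.

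A domain border lay within 50 kb of 18 of the 41 genes in the parental list, or 43.9% (28.5 to 60.3), beside 34.5% of all protein-coding genes. In the resistant list 21 genes had one, or 51.2% (35.1 to 67.1), beside 35.7% of all genes. Both intervals include the share of all genes. The same 17 genes had one in both lists, Foxd3 in the parental list alone, Foxi1, Foxj2, Foxj3 and Foxp4 in the resistant list alone, and 19 genes in neither. Foxj2 (54.6 kb parental, 44.6 kb resistant) and Foxj3 (50.9 and 40.9 kb) passed the limit of 50 kb through a shift of 1 domain bin. Shares of all genes with a border in both lists or in 1 list alone are not given here, so the genes named are a listing. Domains that held a forkhead gene had median sizes of 560 kb (parental) and 570 kb (resistant), beside 550 and 540 kb over all genes. They held a median of 4 other protein-coding genes in each list, beside 8 over all genes. Foxp1 had no other gene in its domain in either list, Foxb1 had none in the parental list, and Foxp4 had 33 in the parental list.

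Both borders of the domain were found within 20 kb in the other list for 33 of 41 genes in the parental list, or 80.5% (65.1 to 91.2), beside 70.5% of all genes. In the resistant list they were found for 34 of the 40 genes that a domain held, or 85% (70.2 to 94.3), beside 66% of all genes. Neighbouring genes in 1 domain share its borders, so these intervals take genes as independent that are not all so. The domain was identical in both lists for 20 of the 40 genes that had one in each, beside 31.3% of all protein-coding genes. At Foxp4 a border lay farther from any border of the other list than for any other forkhead gene domain. Its parental domain of 1430 kb ended at 48530000, 605 kb beyond the gene, and its resistant domain of 840 kb ended at 47940000, 15.4 kb beyond it and 590 kb from the nearest parental border. Its loop to Tfeb lay inside both domains.

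Foxi1 lay in a parental domain of 860 kb and a resistant domain of 280 kb, with a resistant border at 34230000, 21.9 kb from the gene, that was 280 kb from any parental border. Foxd3 showed the opposite arrangement, with a parental border at 99635000, 21.3 kb from the gene, and a resistant border no nearer than 371 kb. Neither Foxi1 nor Foxd3 had a loop anchor within 50 kb of an end, and 1 resistant and 0 parental loops spanned Foxi1. Smaller shifts, of 30 to 180 kb, separated a border of the domain of Foxb1, Foxi3, Foxj2, Foxp2 and Foxr1 from the nearest in the other list. Foxk2 lay in a parental domain of 550 kb and in no resistant domain, with the nearest resistant border 40 kb away.

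A border fell inside the body of Foxk1, Foxn3 and Foxp1 in the parental list and of Foxn3 and Foxp1 in the resistant list. The Foxk1 border stood at 142460000 in the parental list, inside the right end of the gene, and at 142470000, 7.99 kb beyond it, in the resistant list. That is a difference of 1 domain bin of 10 kb. In Foxn3 the border stood at 99420000 and 99410000, and in Foxp1 at 99010000 and 99020000, again 1 bin apart.

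**Figure D4:**
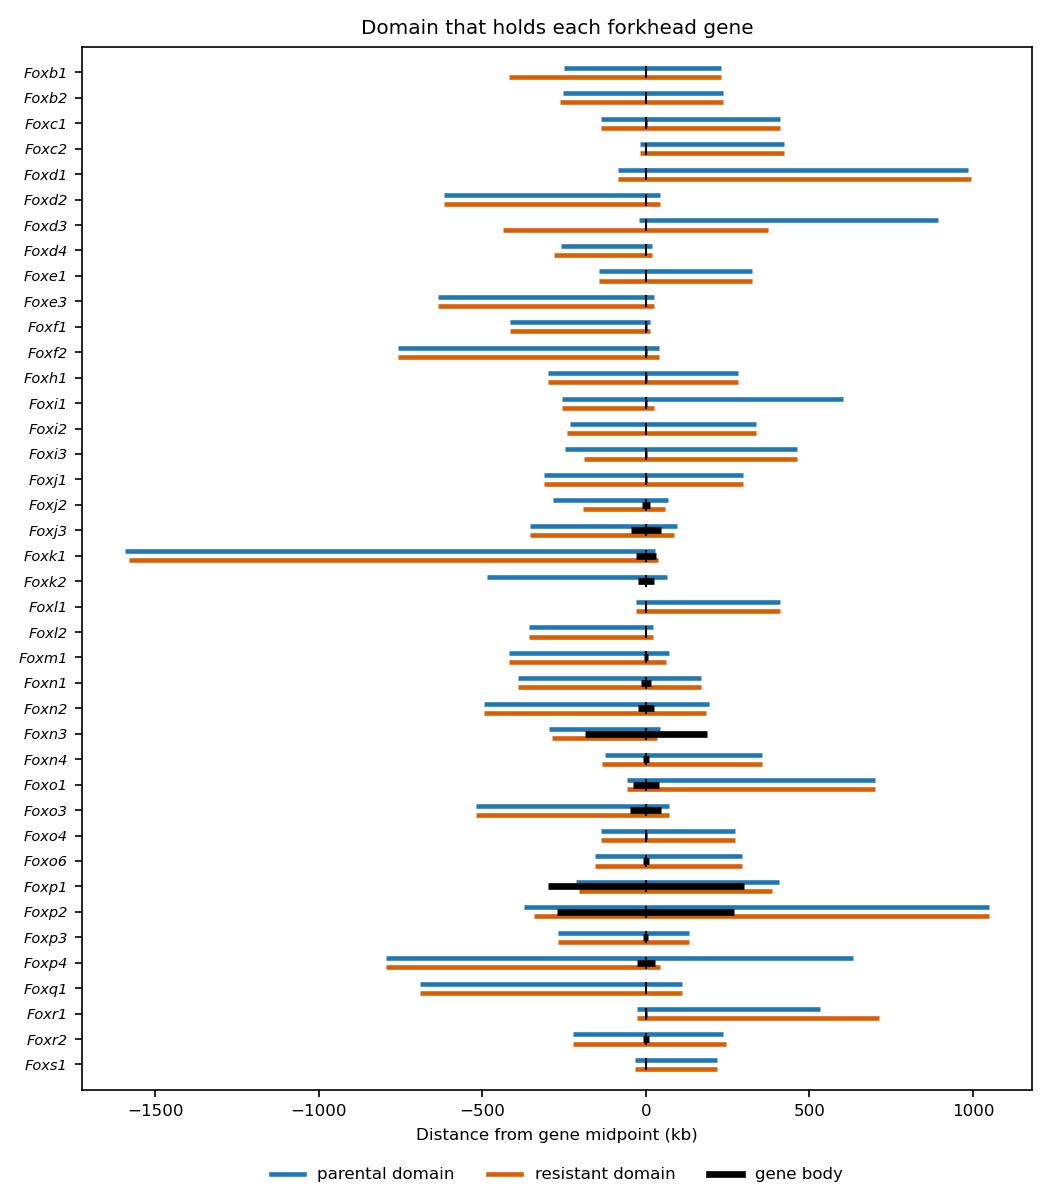
Extent of the domain that holds 40 of the 41 forkhead genes, as distance from the gene midpoint in kb, with the parental domain in blue above the resistant domain in orange and the gene body in black. Bars that coincide are domains placed alike in both lists, the right ends differ by 590 kb at Foxp4, and Foxk2 has no resistant bar.

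Genes that regulate forkhead factors or are known as their targets were counted in the same way, and each count is to be read beside the 23.3% (parental) and 23.8% (resistant) of all protein-coding genes with a loop. Of 20 FoxO regulators, 7 had a parental and 7 a resistant loop, with 1 and 3 loops at Irs1, an insulin receptor adaptor, 2 and 1 at Sgk1, a kinase that phosphorylates FoxO factors, and 1 and 1 at Insr, the insulin receptor. Of 25 FoxO targets, 8 had a parental and 11 a resistant loop. Cdkn1a, the cell cycle inhibitor p21, Bcl2l11, the apoptosis activator Bim, and Atg12, of autophagy, each had 2 parental loops and 1 resistant loop. Of 25 FoxM1 regulators and targets, 8 and 6 had a loop, led by the mitotic checkpoint kinase gene Bub1b with 2 in each list, then the mitotic kinase gene Aurka and the DNA repair gene Brca2 with 1 in each list.

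A list of 18 genes held genes of FoxF, FoxC and FoxL1 mesenchyme and its Hedgehog and TGF-beta signals, and Mthfsd as the neighbour of Foxf1 and Foxc2. Of these 18, 7 had a parental and 5 a resistant loop. Col1a1, a fibrillar collagen, had 3 in each list and Smo, the Hedgehog transducer, had 2. Mthfsd also had 3 in each list, at anchors described above for Foxf1 and Foxc2, so they are not separate from the loops given there. Of 15 FoxJ1 and motile cilia genes, 4 and 2 had a loop, with 1 in each list at Spag6 and 1 in the parental list alone at Ccno and Dnah9. Of 14 FoxP and FoxK partners, 3 and 2 had a loop, among them the corepressor genes Ctbp1, with 2 and 1, Sin3a, with 1 and 1, and Gatad2b, with 1 and 0. The median gene had 0 loops in every one of these lists, as over all protein-coding genes.

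Other families of transcription factors were counted alike. A loop lay at 7 of 19 Sox genes in the parental list, or 36.8% (16.3 to 61.6), and at 4 in the resistant list, or 21.1% (6.05 to 45.6). For the 17 Klf genes these were 8 genes, or 47.1% (23 to 72.2), and 4 genes, or 23.5% (6.81 to 49.9). All 3 Foxa genes had one in the parental list and 2 in the resistant list. The intervals of the Sox, Klf and Foxa genes overlapped those of the other forkhead genes in both lists, and the differences between families were not tested.

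**Figure D5:**
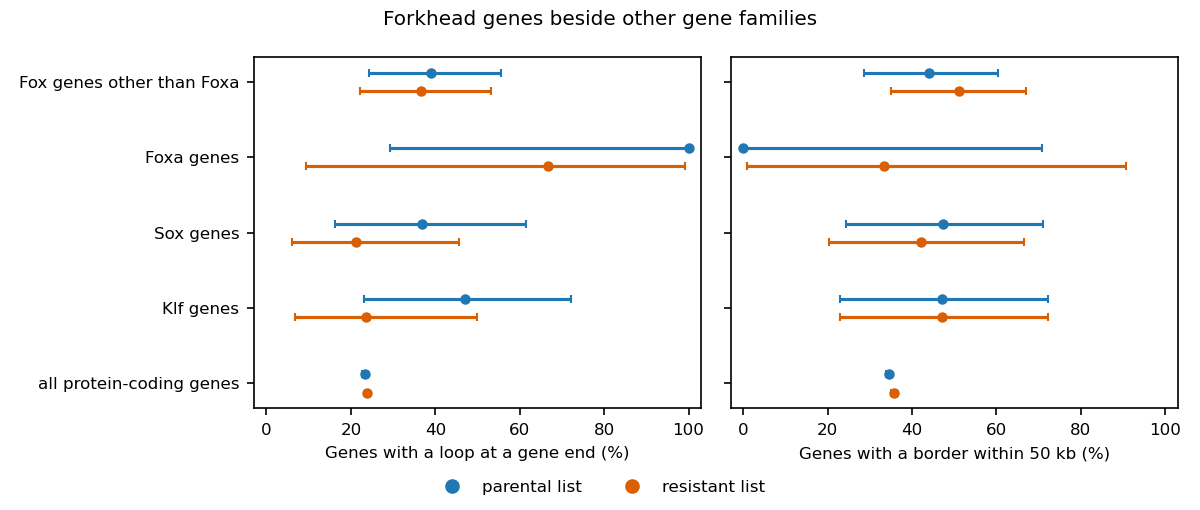
Percent of genes with a loop at a gene end (left) and with a domain border within 50 kb (right) in the forkhead genes other than Foxa, in the Foxa, Sox and Klf genes and in all protein-coding genes. Points are shares in the parental (blue) and resistant (orange) lists and bars are exact Clopper-Pearson 95% intervals, which overlap between all 4 families.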

How the data were processed

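The values were the processed Hi-C calls that the authors deposited, 1 loop list and 1 domain list per condition. Samples of other assays were not analysed here. Per the submitters' processing notes, BWA was used, with mm10 and hg19 as builds. Which caller was run, how it was set and whether replicates were pooled was not given in the sources used here. Loops were given a p-value by the authors, at most 0.0497 in the deposited lists, so weaker loops were not seen. Domains carry a separation score of unstated scale, per the file headers. The score was used only to keep the upper scores in an alternative. Fewer reads give fewer and weaker calls, so counts can move with the unknown depth.

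Gene positions came from RefSeq's mouse annotation on GRCm38.p6, the assembly of mm10. A domain was assigned by the gene midpoint and a border was matched within 20 kb. Loop and gene matching was tested on simulated data. Every forkhead gene with a loop at an end was named with its loops. The others were named, with loops within 50 kb given as counts and some also with values. From each gene list the 3 genes with most loops were named. The members and lists were chosen with earlier results of these data known. Results of 1 forkhead gene are not reported here, although it is in the counts. A planned comparison of forkhead protein sequences was not run, since none were used here. Alternatives were other windows, tolerances and thresholds. Tools were Python 3.11.15, pandas 2.3.3, numpy 2.4.6, scipy 1.17.1 and matplotlib 3.10.9.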

Additional observations from a re-analysis of the deposited data

How the results depend on the processing

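Of 80 alternatives computed, 59 left the value within the limits set for it (1.5 times for a count, the interval for a share) and 21 did not. With a window of 0 kb, so that the bin itself had to hold a gene end, 7 forkhead genes had a parental loop and 7 a resistant loop, with 3 parental-only and 3 resistant-only loops. With a window of 10 kb there were 14 parental-only loops. With 50 kb there were 27 and 29 genes and 27 parental-only and 29 resistant-only loops. The loops of lowest p in each list (3414 parental and 3584 resistant) left 3 parental-only and 5 resistant-only loops. These were among 12 parental and 14 resistant loops at forkhead genes, of which 75% and 64.3% were found in both lists. With identical bins required, 25% of parental and 26.3% of resistant loops were found in both lists, leaving 15 and 14 loops of 1 list. Forkhead genes whose parental domain had both borders in the other list numbered 20 of 41 with no tolerance. Among the domains of the upper scores they numbered 17 of the 19 genes that such a domain held. Borders lay within 20 kb of 7 and 8 genes, and borders of the upper scores within 50 kb of 11 and 12. Apart from genes with a loop within 50 kb (59.6% and 60.7% of all), shares of all protein-coding genes at these settings are not given here. The counts therefore show how the forkhead values moved, and not whether they stood apart from all genes. A wider or narrower window and the stricter thresholds let more or fewer calls in, while the tolerances changed only the matching of the same calls. No paired analysis was possible because each condition had 1 list that carried no replicate, and no replicate could be left out. Depth is unknown, so a loop missing from a list is one not called there.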

Other observations

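Loops with an anchor inside a gene were counted for the longest forkhead genes. Foxp1, of 597 kb, had 2 resistant loops with an anchor inside the gene, of which 1 lay wholly inside it (195 kb, p 0.00171), and 0 parental loops. Foxn3, of 374 kb, had 2 parental loops with an anchor inside the gene and 0 resistant loops. Foxp2, of 541 kb, had 1 in each list. These genes were described after their values were seen, and no difference was tested.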
